A study of Mus musculus with 12 samples.

Results

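The kallikreins and the Spink proteins, a family of secreted serine proteases and a family of serine protease inhibitors, were followed in the skin of C3H/HeJ mice. A gene was taken if its symbol was Klk followed by a number, with any suffix, or Spink followed by a number. That rule took 39 of the 23359 genes listed, 27 kallikreins and 12 Spink genes. A gene was counted as detected at 1 FPKM or more in at least 3 of the 12 libraries, where FPKM is the number of fragments per kilobase of transcript, scaled to the mapped total of the library. By that rule 18 were detected, 11 kallikreins and 7 Spink genes.

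Polyadenylated RNA of macrodissected skin had been sequenced in 4 groups of 3 libraries. Treated skin was fibrotic skin of the 20-week time point into which CD36highCD90+ fibroblasts had been transplanted, and it was set beside untreated fibrotic skin of 20 weeks, untreated fibrotic skin of 6 weeks, and normal skin. Every group was skin of the same strain, and the transplant was the only agent named. How the fibrosis was induced is not stated in the labels, nor is the age of any animal, the dose of cells or a time point for normal skin. Whether the 3 libraries of a group are separate animals is not stated either, so every p-value rests on a spread between samples that may be technical.

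Kallikreins are made as inactive precursors and are opened by other proteases. In human epidermis KLK5 is described as the starter of a cascade that activates KLK7 and KLK14, and these enzymes cut the corneodesmosomes, the junctions that hold the dead outer cells together, so that the cells can be shed. The product of SPINK5, named LEKTI, is cut into fragments that block these enzymes, and its loss in people causes Netherton syndrome, a disease of scaling skin and a leaking barrier.

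The samples behaved as skin: all 10 keratinocyte markers examined, among them Krt5 and Krt14, were detected. Their summed FPKM ran from 7234 to 12723 in treated skin, from 11533 to 14409 in 20-week fibrotic skin, from 12017 to 14039 in 6-week fibrotic skin and from 6966 to 7523 in normal skin. Treated libraries spread more than the others, with a median SD of 0.239 per gene on the log2 scale, against 0.142 to 0.148 in the other groups. Treated replicate 1 stood apart from treated replicates 2 and 3: it was the highest of the 3 for 9 of 11 detected kallikreins, and the tests on treated skin are given with and without it. Summed markers of the hair shaft, 9 of 9 detected, ran from 133 to 1911 FPKM in treated skin, against 34.7 to 86.8 FPKM in 20-week fibrotic skin, and those of the sebaceous gland from 309 to 1799 FPKM in treated skin, against 206 to 232 FPKM. Skeletal muscle markers, 8 of 8 detected, summed to 79.2 to 2371 FPKM in treated and 615 to 2759 FPKM in 20-week fibrotic skin. They ran from 52.5 to 1864 FPKM in 6-week fibrotic and 130 to 5466 FPKM in normal skin. In every group, the library lowest in all 8 muscle markers had the highest kallikrein sum. It was replicate 1 in treated and 20-week fibrotic skin, and replicate 2 in the other groups. The part of muscle in the kallikrein levels was not tested. In bulk skin, fewer cells of a type and less RNA per cell cannot be told apart.

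Most of the detected kallikreins were higher in fibrotic than in normal skin at both times, while the inhibitors split. Most kallikreins were also lower in treated than in untreated fibrotic skin of 20 weeks, but those results were less stable. A test on those 6 libraries alone passed 0 of the 18 genes. Set against normal skin, 7 of the 11 detected kallikreins passed the test as higher in 6-week fibrotic skin and 1 as lower, and 2 of the 7 detected Spink genes passed as higher and 1 as lower. Over all 13761 tested genes 39.3% passed, 17.6% as higher and 21.7% as lower. The libraries did not overlap for 10 kallikreins and 3 Spink genes, nor for 58.1% of all tested genes. In 20-week fibrotic skin 9 kallikreins rose and 1 fell, with 1 Spink gene higher and 1 lower, beside 33.5% of all tested genes, 15.3% as higher and 18.2% as lower. There the libraries did not overlap for 10 kallikreins and 4 Spink genes, nor for 54.6% of all tested genes. In treated against 20-week fibrotic skin 7 kallikreins and 2 Spink genes fell and none rose, beside 15.3% of all tested genes, 4.45% as higher and 10.9% as lower. In treated against normal skin 3 kallikreins and 1 Spink gene were higher and none lower, beside 20.7% of all tested genes, 7.57% as higher and 13.2% as lower, and 3 kallikreins and 3 Spink genes did not overlap, nor did 37.5% of all tested genes. Comparisons with normal skin share its libraries, and so do those with treated skin.

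Markers of other cells moved in the same comparisons, and the shares of all tested genes given above for each comparison stand beside their counts. Of the 9 hair shaft markers 8 rose in 6-week fibrotic against normal skin, none passed in 20-week fibrotic against normal skin, 3 rose in treated against fibrotic skin and 9 were higher in treated than in normal skin. Their sum ran from 354 to 614 FPKM in 6-week fibrotic skin, against 1.20 to 115 FPKM in normal skin. Against normal skin, 4 of 5 macrophage markers rose in 6-week and 2 in 20-week fibrotic skin, 0 passed in treated against fibrotic skin and 1 was higher in treated than in normal skin. Their sum ran from 69.7 to 93.6 FPKM in treated skin, from 95.4 to 96.0 FPKM in 20-week fibrotic skin, from 83.4 to 175 FPKM in 6-week fibrotic skin and from 40.5 to 73.1 FPKM in normal skin. The part of these markers in the changes of the kallikreins and Spink genes was not tested.

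A gene passed when its adjusted p was under 0.05 in limma, fitted to log2(FPKM + 1) of all 12 libraries with Benjamini-Hochberg adjustment over all tested genes, and every adjusted p below comes from that fit unless another is named. Fold changes on that scale understate the change of low genes. The smallest p of an exact permutation test of 3 against 3 libraries is 0.1, so none is given. Of the 18 genes 6 did not reach 1 FPKM in 3 normal libraries and were detected only with the help of the other groups: Klk12 and Spink12 reached it in none, Klk13 and Spink7 in 1 each, and Spink2 and Spink4 in 2 each. For Klk12, Klk13, Spink7 and Spink12 a higher level than in normal skin is thus built into their choice. Spink6 reached 1 FPKM in 1 library of each fibrotic group and was detected through the normal and treated ones, so that its lower level in fibrotic skin is built in likewise. The counts above describe the detected genes and are not support for a change of the 2 families as wholes. Against normal skin, the median log2 change of the 11 detected kallikreins was 3.05 at 6 weeks and 2.65 at 20 weeks, beside medians of -0.05 and -0.04 over all tested genes. For the 7 Spink genes it was 0.15 at 6 weeks and 0.62 at 20 weeks.

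**Figure D1:**
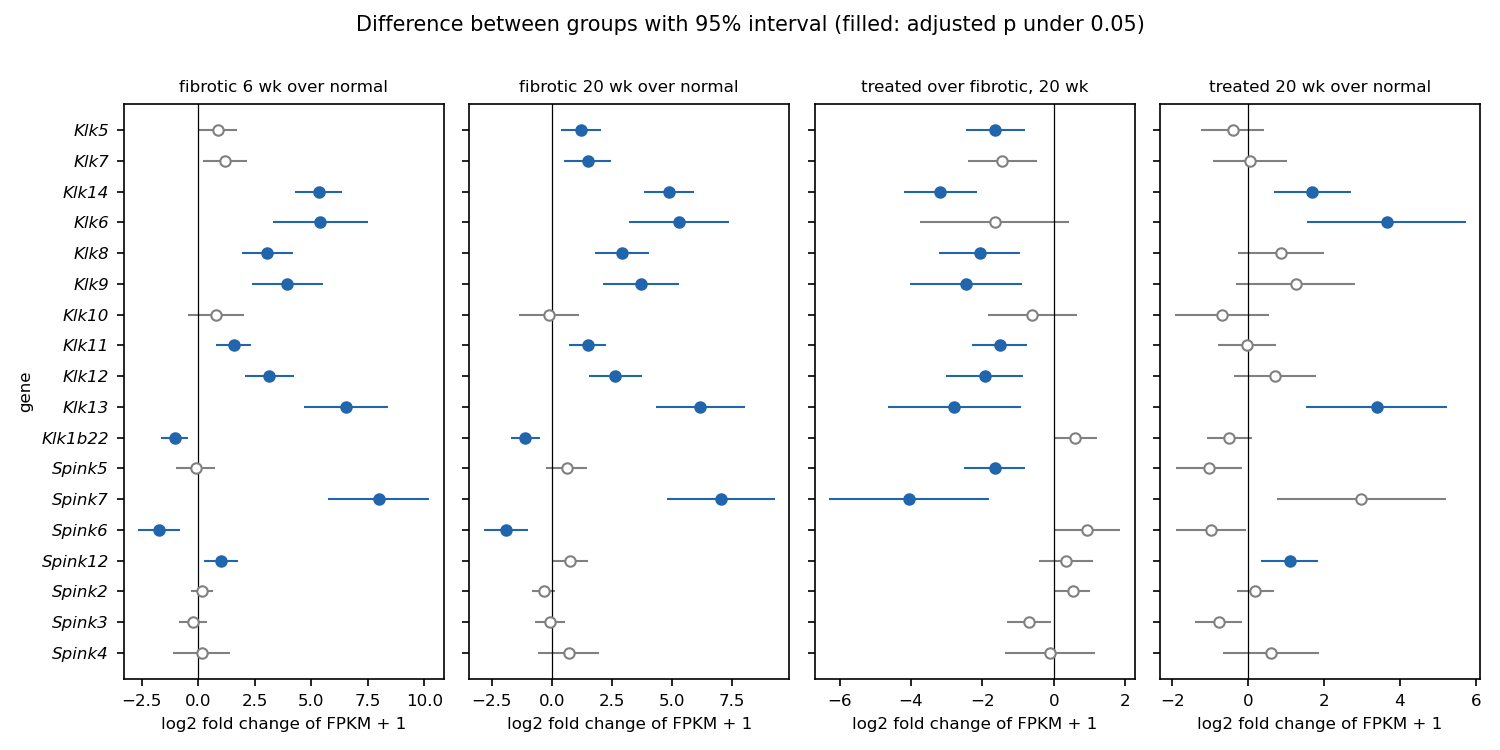
Log2 fold change of FPKM + 1 with its 95% interval for the 18 detected genes in 4 comparisons, on the x axis of each panel; filled points passed an adjusted p of 0.05 in limma. Klk13 and Spink7 lie farthest to the right in both comparisons of fibrotic with normal skin, and no gene passed as higher in treated than in fibrotic skin.

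All 27 kallikrein genes lie in 1 cluster on mouse chromosome 7, here placed by RefSeq on build GRCm38.p6, at chr7:43680880-44229622. The 10 detected genes other than Klk1b22 fill its first 170.301 kb of 548.742 kb without an undetected kallikrein between them. Klk1b22 stands apart, among the glandular Klk1b genes. Of the 12 Spink genes 9 lie on chromosome 18, and Spink4, Spink2 and Spink8 on chromosomes 4, 5 and 9. Neighbours in the cluster differed in size of change: Klk13 and Klk14 at one end had log2 changes of 6.19 and 4.88 in 20-week fibrotic skin against normal skin, Klk10 in the middle had -0.10, and Klk5 at the other end had 1.24.

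**Figure D2:**
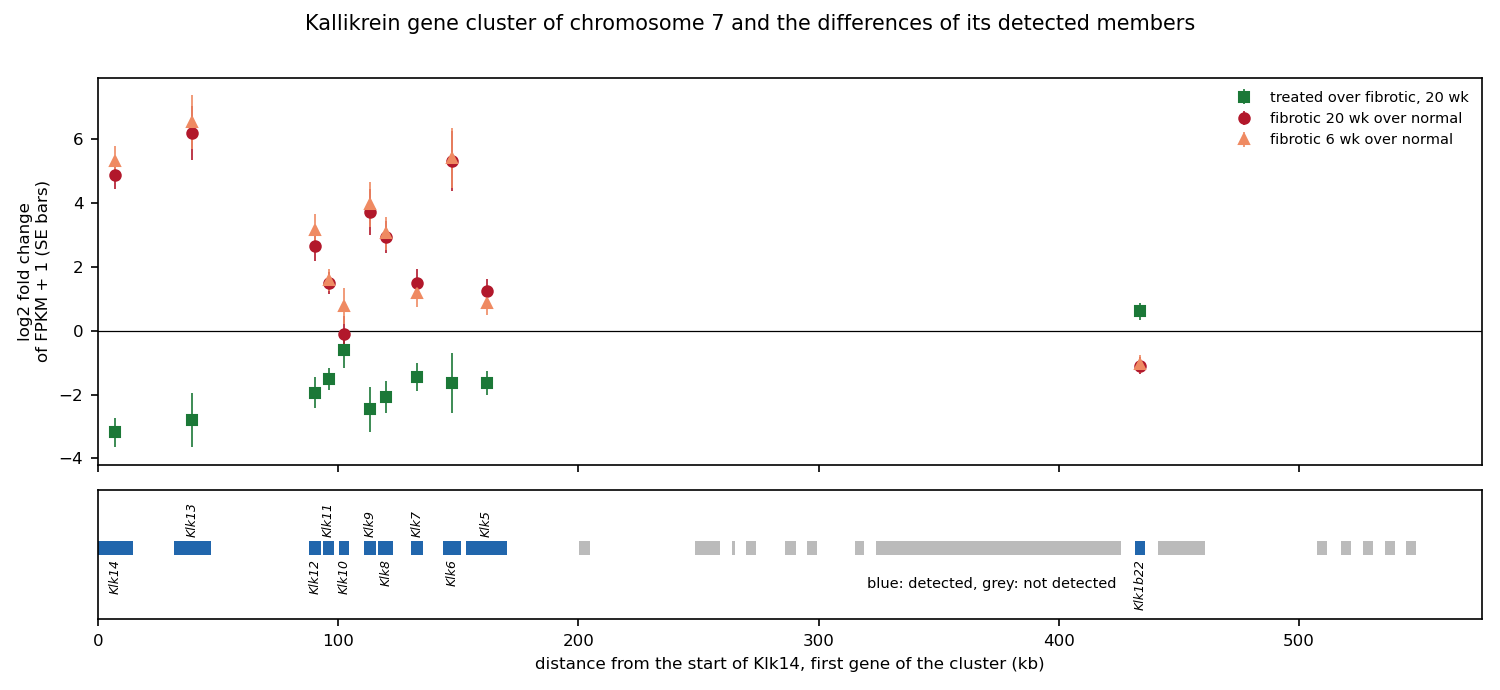
Upper panel, log2 fold change of FPKM + 1 with SE bars for the 11 detected kallikreins, against the distance in kb from the start of Klk14; lower panel, the 27 kallikrein genes of chromosome 7 as bars, blue where detected and grey where not. The 10 detected genes from Klk14 to Klk5 are adjacent. In 20-week fibrotic over normal skin Klk10 lies near 0 between neighbours that are higher. It lies at 0.77 in 6-week fibrotic over normal skin and at -0.60 in treated over fibrotic skin. Klk1b22 lies on the other side of 0 from most of the others.

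The bases before the transcript starts of 6 kallikreins are shown to set the genes with the largest log2 changes against normal skin (Klk13, Klk6, Klk14) beside a neighbour that did not pass in any comparison (Klk10), a neighbour that did (Klk8) and the gene that went the other way (Klk1b22). Each run is 250 bases long, reads 5′ to 3′ and ends at the base before a start in RefSeq's table for GRCm38.p6. For Klk14, Klk8 and Klk6 the starts used are not the outermost start of the gene. Klk6 has 2 starts in that table, both inside the span of the gene, and both runs are shown. Capitals mark GGGCGG or its complement CCGCCC, the GC box bound by Sp1.
Klk14 (chr7:43690168-43690417, + strand): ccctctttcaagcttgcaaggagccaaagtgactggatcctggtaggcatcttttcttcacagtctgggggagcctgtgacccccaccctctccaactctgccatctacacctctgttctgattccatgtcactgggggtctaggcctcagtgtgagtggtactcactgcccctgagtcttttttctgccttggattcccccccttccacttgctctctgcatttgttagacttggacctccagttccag
Klk13 (chr7:43712317-43712566, + strand): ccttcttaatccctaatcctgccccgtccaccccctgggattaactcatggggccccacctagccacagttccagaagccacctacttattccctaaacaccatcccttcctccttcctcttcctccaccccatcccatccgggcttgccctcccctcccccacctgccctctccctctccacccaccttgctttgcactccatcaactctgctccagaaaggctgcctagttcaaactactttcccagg
Klk6 (chr7:43824294-43824543, + strand): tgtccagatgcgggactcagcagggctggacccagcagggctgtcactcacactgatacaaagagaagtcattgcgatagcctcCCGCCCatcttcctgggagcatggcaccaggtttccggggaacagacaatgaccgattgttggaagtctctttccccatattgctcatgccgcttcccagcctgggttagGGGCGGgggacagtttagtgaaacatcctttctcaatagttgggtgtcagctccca
Klk6 (chr7:43825200-43825449, + strand): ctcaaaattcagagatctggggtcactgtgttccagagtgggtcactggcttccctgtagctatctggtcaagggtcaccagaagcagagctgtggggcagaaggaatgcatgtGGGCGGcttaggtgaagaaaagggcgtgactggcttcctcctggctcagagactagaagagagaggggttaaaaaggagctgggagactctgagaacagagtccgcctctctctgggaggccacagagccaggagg
Klk10 (chr7:43780804-43781053, + strand): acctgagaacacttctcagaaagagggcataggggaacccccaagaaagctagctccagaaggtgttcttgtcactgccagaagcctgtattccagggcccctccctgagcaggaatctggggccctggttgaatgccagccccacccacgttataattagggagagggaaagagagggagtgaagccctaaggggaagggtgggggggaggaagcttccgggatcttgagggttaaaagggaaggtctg
Klk8 (chr7:43797327-43797576, + strand): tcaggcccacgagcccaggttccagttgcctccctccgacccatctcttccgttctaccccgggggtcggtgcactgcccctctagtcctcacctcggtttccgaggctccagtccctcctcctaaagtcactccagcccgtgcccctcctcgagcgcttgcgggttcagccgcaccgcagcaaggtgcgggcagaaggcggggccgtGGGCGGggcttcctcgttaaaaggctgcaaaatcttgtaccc
Klk1b22 (chr7:44112423-44112672, + strand): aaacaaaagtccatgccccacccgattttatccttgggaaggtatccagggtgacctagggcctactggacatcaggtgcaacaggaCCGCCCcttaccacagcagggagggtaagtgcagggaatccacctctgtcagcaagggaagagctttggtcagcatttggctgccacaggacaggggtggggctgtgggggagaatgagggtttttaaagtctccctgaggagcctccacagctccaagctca
Of these runs, those of Klk8, Klk6 and Klk1b22 hold the GC box and those of Klk14, Klk13 and Klk10 do not, so the genes with the largest changes are found on both sides. Both strands were searched in windows of the same length for the 11 detected kallikreins. These 11 genes have 13 windows, and the GC box was found in 5 of the 13, from 4 genes, namely Klk8, Klk7, Klk6 and Klk1b22. It was found in 32.7% of all 32841 windows in the table. The AP-1 motif TGANTCA was found in 0 of the 13 and in 6.75% of all windows, and TATAAA in 0 of the 13 and in 12.4%. A match is a description of these letters only.

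The 3 enzymes of the shedding cascade differed from each other in level and in size of change. Klk7, the chymotrypsin-like enzyme of the cornified layer, was the most abundant gene of either family in every group by its mean. It stood at 733, 228 and 170 FPKM in treated skin, 1040, 740 and 745 FPKM in 20-week fibrotic skin, 551, 784 and 689 FPKM in 6-week fibrotic skin, and 254, 356 and 282 FPKM in normal skin. All fibrotic libraries were above all normal ones, and all 3 treated libraries were below the fibrotic ones of 20 weeks. Its log2 change against normal skin was 1.49 ± 0.44 (SE) at 20 weeks, with an adjusted p of 0.0265, and 1.18 ± 0.44 at 6 weeks, with an adjusted p of 0.0558 that missed the threshold.

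Klk5, the trypsin-like starter, stood at 152, 82.5 and 42.0 FPKM in treated skin, 228, 254 and 284 FPKM in 20-week fibrotic skin, 163, 255 and 187 FPKM in 6-week fibrotic skin, and 93.6, 132 and 100 FPKM in normal skin. Here too the fibrotic libraries of both times lay above the normal ones without overlap. Its log2 change against normal skin was 1.24 ± 0.37 at 20 weeks (adjusted p 0.0292) and 0.87 ± 0.37 at 6 weeks (adjusted p 0.0865). The 20-week calls of Klk5 and Klk7 were lost when any 1 of the 3 fibrotic replicates of that time was left out, without normal replicate 1, without normal replicate 3 or with no filter on low values, where the adjusted p ran from 0.0597 to 0.0869 for Klk5 and from 0.0529 to 0.0881 for Klk7. At 6 weeks both passed in a fit of the 6 compared libraries alone, with adjusted p of 0.0154 for Klk5 and 0.00402 for Klk7.

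Klk14, a trypsin-like enzyme that in human skin cuts desmoglein 1 and activates the receptor encoded by F2RL1, had a far lower level in normal skin. It stood at 3.75, 9.02 and 5.72 FPKM in treated skin, 47.1, 80.1 and 60.8 FPKM in 20-week fibrotic skin, 130, 128 and 34.8 FPKM in 6-week fibrotic skin, and 1.02, 1.31 and 1.02 FPKM in normal skin. None of the groups overlapped except the fibrotic ones with each other. Its log2 change against normal skin was 5.32 ± 0.46 at 6 weeks (adjusted p 0.000115) and 4.88 ± 0.46 at 20 weeks (adjusted p 0.000303). In treated against fibrotic skin it fell by 3.19 ± 0.46 on the log2 scale (adjusted p 0.0151), and it was still 1.69 ± 0.46 higher in treated than in normal skin (adjusted p 0.0292).

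The other kallikreins of the epidermal stretch fell into genes that were nearly silent in normal skin and genes that were not. Klk13, a trypsin-like enzyme, showed the largest log2 change of the detected kallikreins against normal skin, where it was itself at 1 FPKM or more in 1 library. It stood at 96.8, 14.9 and 3.40 FPKM in treated skin, 148, 117 and 128 FPKM in 20-week fibrotic skin, 159, 207 and 138 FPKM in 6-week fibrotic skin, and 0.534, 1.52 and 0.520 FPKM in normal skin. The treated libraries lay between fibrotic and normal ones without touching either. The log2 change was 6.53 ± 0.84 at 6 weeks (adjusted p 0.000538) and 6.19 ± 0.84 at 20 weeks (adjusted p 0.000997) against normal skin.

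Klk6, a trypsin-like enzyme best known from the brain as neurosin, stood at 410, 35.4 and 14.5 FPKM in treated skin, 300.1, 140 and 169 FPKM in 20-week fibrotic skin, 149.97, 272 and 217 FPKM in 6-week fibrotic skin, and 2.78, 5.97 and 3.47 FPKM in normal skin. Treated replicate 1 was above every other library of the 12, while the other treated libraries were below every fibrotic one. Against normal skin Klk6 was higher by 5.41 ± 0.94 at 6 weeks (adjusted p 0.00211) and by 5.30 ± 0.94 at 20 weeks (adjusted p 0.00314). Klk12, also trypsin-like, stood at 2.45, 1.16 and 0.511 FPKM in treated skin, 6.92, 7.98 and 7.98 FPKM in 20-week fibrotic skin, 13.97, 22.9 and 4.03 FPKM in 6-week fibrotic skin, and 0.210, 0.718 and 0.234 FPKM in normal skin. The fibrotic libraries were above all treated and all normal ones, and treated replicate 3 lay within the range of normal skin. Its log2 changes against normal skin were 3.15 at 6 weeks and 2.65 at 20 weeks, both past the threshold.

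Klk8, known as neuropsin from mouse brain and also made in skin, stood at 167, 66.3 and 25.9 FPKM in treated skin, 304, 266 and 277 FPKM in 20-week fibrotic skin, 283, 391 and 259 FPKM in 6-week fibrotic skin, and 32.0, 47.6 and 30.8 FPKM in normal skin. Its neighbour Klk9, chymotrypsin-like, stood at 159, 43.3 and 10.4 FPKM in treated skin, 281, 218 and 217 FPKM in 20-week fibrotic skin, 243, 356 and 252 FPKM in 6-week fibrotic skin, and 14.6, 20.1 and 17.1 FPKM in normal skin. For both genes the 6 fibrotic libraries lay above the 3 normal ones, and treated replicate 3 lay below all 3 normal libraries. Against normal skin the log2 changes were 3.05 ± 0.51 for Klk8 and 3.95 ± 0.71 for Klk9 at 6 weeks, and 2.93 ± 0.51 for Klk8 and 3.71 ± 0.71 for Klk9 at 20 weeks, with adjusted p from 0.00177 to 0.00422.

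Klk11 changed less. Its mean was 53.8 ± 30.2 FPKM in treated skin, 140 ± 6.48 FPKM in 20-week fibrotic skin, 151 ± 37.0 FPKM in 6-week fibrotic skin and 49.5 ± 8.87 FPKM in normal skin (SD, n = 3 each), and all 6 fibrotic libraries lay above the normal ones. Against normal skin it was higher by 1.58 ± 0.35 on the log2 scale at 6 weeks (adjusted p 0.00641) and by 1.49 ± 0.35 at 20 weeks (adjusted p 0.00981). Klk10, which lies next to it, was the exception in the stretch: it stood at 76.3, 26.4 and 87.8 FPKM in treated skin, 158, 65.4 and 61.2 FPKM in 20-week fibrotic skin, 185, 270 and 79.3 FPKM in 6-week fibrotic skin, and 80.5, 122 and 79.99 FPKM in normal skin. Every pair of groups overlapped for Klk10, and it passed no test. Its log2 change in 20-week fibrotic skin against normal skin was -0.10, with a 95% interval from -1.34 to 1.14.

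An antisense transcript, 2310002F09Rik, runs opposite to the genes from Klk14 to Klk8. It was listed between 0.269 and 1.21 FPKM over the 12 libraries. The kit kept the strand, but whether the counting used it is not given in the sources used here, so reads of this transcript could not be told apart from those of the kallikreins it crosses.

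Klk1b22, a glandular kallikrein of the mouse that was named epidermal growth factor binding protein, moved the other way. It stood at 24.7, 21.3 and 21.6 FPKM in treated skin, 15.5, 9.31 and 20.8 FPKM in 20-week fibrotic skin, 11.9, 14.7 and 19.3 FPKM in 6-week fibrotic skin, and 36.7, 24.5 and 36.5 FPKM in normal skin. All fibrotic libraries were below all normal ones, and all treated ones were above those of 20-week fibrotic skin. Against normal skin it fell by 1.04 ± 0.27 on the log2 scale at 6 weeks (adjusted p 0.0129) and by 1.09 ± 0.27 at 20 weeks (adjusted p 0.0125), and in treated against fibrotic skin its log2 change was 0.60 ± 0.27 (adjusted p 0.142). Its transcript is 85.4% to 89.2% identical to those of the other Klk1 and Klk1b genes with a transcript in the annotation, most to Klk1b21, so reads may have been split between copies and its value is uncertain. The sebaceous markers, 7 of 7 detected, also were lower in fibrotic skin, 206 to 232 FPKM at 20 weeks and 163 to 257 FPKM at 6 weeks, against 486 to 988 FPKM in normal skin, and their part in the result was not tested.

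**Figure D3:**
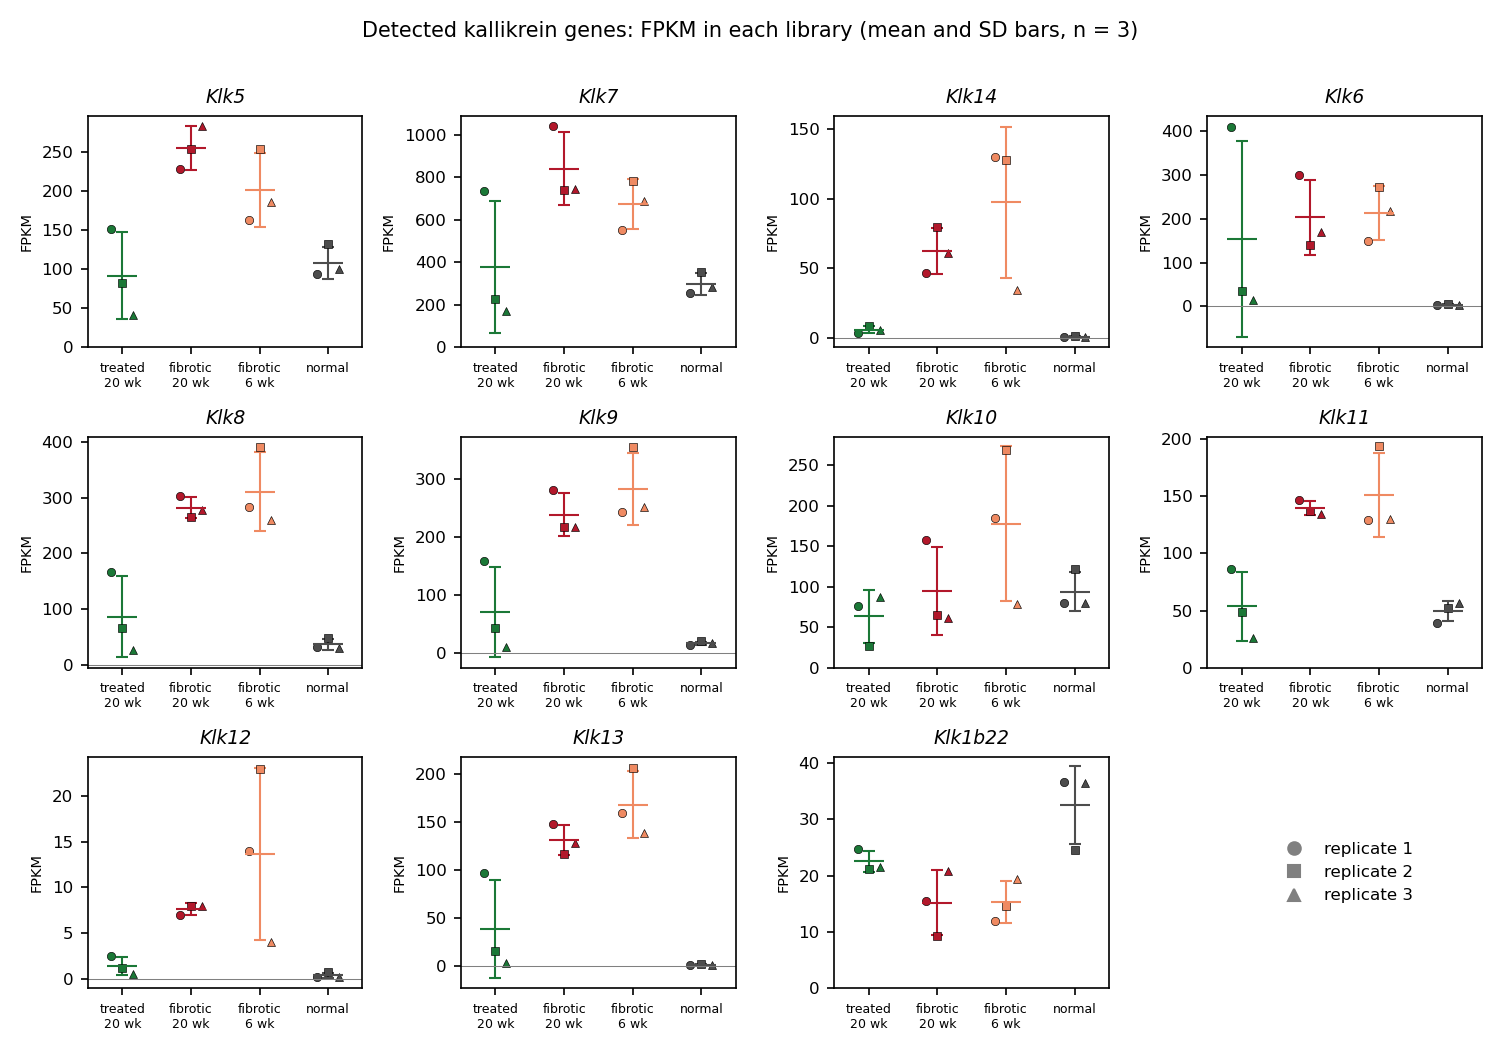
FPKM of the 11 detected kallikreins in each library, on a linear axis with its own range for each gene; symbols give the replicate, and bars the mean and SD of 3 libraries. Treated replicate 1 is the highest treated library in 9 panels, Klk10 overlaps between all groups, and Klk1b22 is highest in normal skin.

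The 16 undetected kallikreins were Klk1, Klk4, Klk15, the pseudogene Klk1b7-ps and the other 12 Klk1b genes. Their highest value was 2.12 FPKM, of Klk15 in a treated library, 15 of them were below 1 FPKM in every library, and Klk1b4 and Klk1b5 were listed at 0 in all 12. With no filter on low values, Klk4 passed as higher than in normal skin at 6 weeks (log2 change 0.38) and at 20 weeks (0.39), Klk1b9 as higher at 6 weeks (0.19), Klk1b24 as lower at 6 weeks (-0.45) and Klk1b21 as lower at both times (-0.09 at 6 weeks and -0.11 at 20 weeks). The 5 undetected Spink genes, Spink8, Spink10, Spink11, Spink13 and Spink14, reached at most 0.644 FPKM, and none of the 5 passed at either time.

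The Spink inhibitors of fibrotic skin were chiefly Spink5 and Spink7, and the 2 differed in level in normal skin. Spink5, the gene of LEKTI, stood at 205, 81.2 and 57.5 FPKM in treated skin, 325, 308 and 307 FPKM in 20-week fibrotic skin, 194, 255 and 133 FPKM in 6-week fibrotic skin, and 201, 219 and 190 FPKM in normal skin. At 6 weeks the fibrotic libraries lay on both sides of the normal ones. At 20 weeks all fibrotic libraries were above all normal ones, and all treated libraries were below the fibrotic ones. The log2 change against normal skin was -0.11 ± 0.39 at 6 weeks, with a 95% interval from -0.97 to 0.75, and 0.62 ± 0.39 at 20 weeks, with an adjusted p of 0.234. A fit of the 6 compared libraries alone gave an adjusted p of 0.00409 at 20 weeks.

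Spink7 had the largest log2 change of all 18 detected genes against normal skin, and like Klk13 it was detected only through the groups in which it was high. Human SPINK7 is known from the oesophagus, where it restrains proteases of the lining. The mouse gene stood at 48.0, 35.5 and 0.732 FPKM in treated skin, 253, 273 and 206 FPKM in 20-week fibrotic skin, 303, 759 and 438 FPKM in 6-week fibrotic skin, and 0.705, 1.41 and 0.525 FPKM in normal skin. The fibrotic libraries were far above the normal ones, and treated replicate 3 lay within the range of normal skin. The log2 change against normal skin was 7.98 ± 1.01 at 6 weeks (adjusted p 0.000495) and 7.05 ± 1.01 at 20 weeks (adjusted p 0.00129). The annotation places Spink10 across Spink7 on the opposite strand, and Spink10 was listed at no more than 0.247 FPKM.

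Spink6, a selective inhibitor of kallikreins in human epidermis, was low throughout. It stood at 1.48, 2.23 and 2.88 FPKM in treated skin, 0.257, 1.66 and 0.326 FPKM in 20-week fibrotic skin, 0.404, 0.473 and 2.10 FPKM in 6-week fibrotic skin, and 3.50, 4.19 and 9.09 FPKM in normal skin. All libraries of the other groups were below the normal ones. It fell by 1.73 ± 0.41 at 6 weeks (adjusted p 0.00932) and by 1.91 ± 0.41 at 20 weeks (adjusted p 0.00744) against normal skin, opposite in direction to Klk13, Klk14 and Spink7.

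Spink12 stood at 1.12, 1.35 and 3.14 FPKM in treated skin, 1.87, 0.580 and 1.25 FPKM in 20-week fibrotic skin, 2.25, 2.05 and 0.763 FPKM in 6-week fibrotic skin, and 0, 0.547 and 0.368 FPKM in normal skin. Its log2 change against normal skin at 6 weeks was 1.02 ± 0.34, with an adjusted p of 0.0355. With the replicate number as a block the adjusted p was 0.0621. It ran from 0.0668 to 0.122 without fibrotic replicate 1 or 2 of 6 weeks, without normal replicate 1 or 3, or with no filter. Spink2, known from sperm, Spink3, the mouse counterpart of the pancreatic trypsin inhibitor SPINK1, and Spink4, known from goblet cells of the gut, stayed between 0.535 and 5.89 FPKM in all libraries and passed in no comparison. Of 8 markers of salivary gland and pancreas 2 were detected and 1 was listed at 0 in all libraries, and their sum ran from 4.10 to 22.8 FPKM in treated skin, 3.18 to 5.29 FPKM in 20-week fibrotic skin, 3.37 to 6.64 FPKM in 6-week fibrotic skin and 9.38 to 13.7 FPKM in normal skin, and their part in the values of these low genes was not tested.

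**Figure D4:**
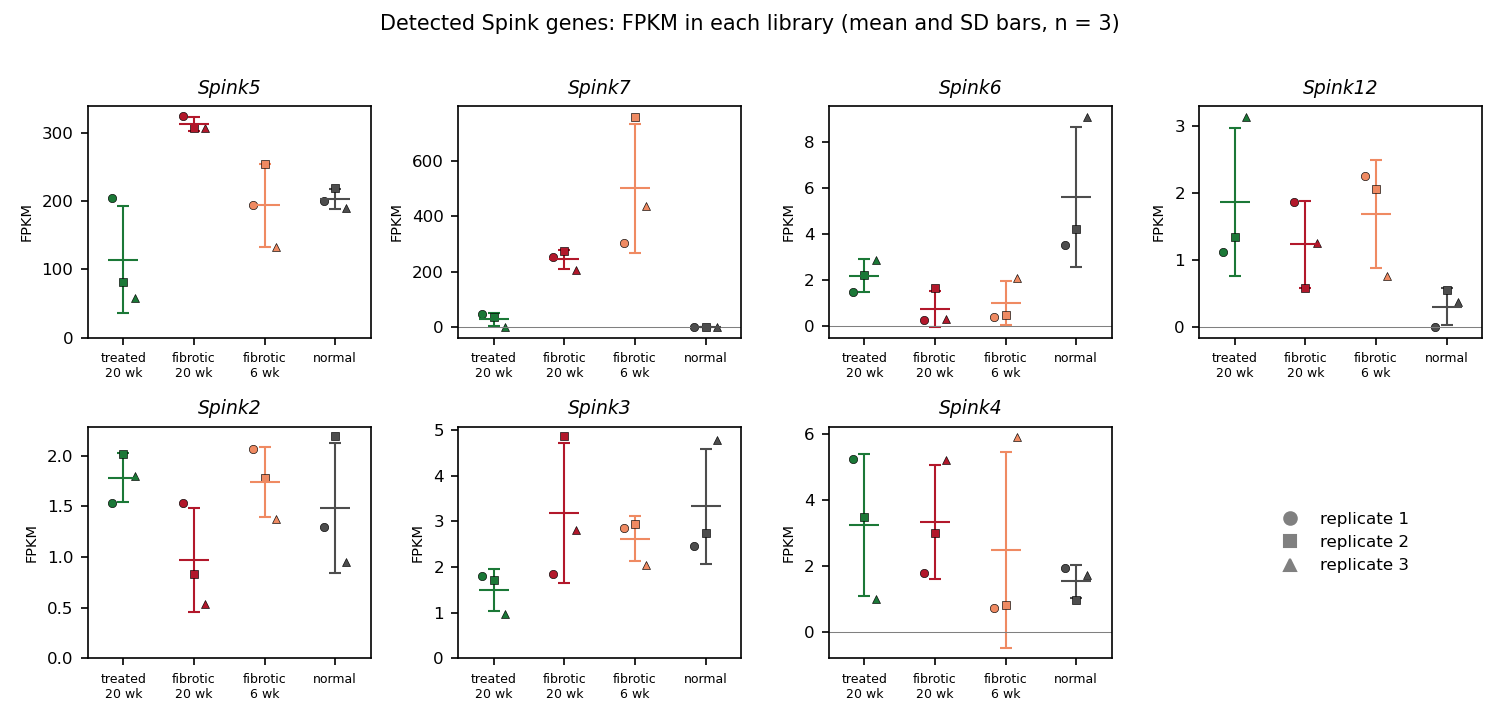
FPKM of the 7 detected Spink genes in each library, on a linear axis with its own range for each gene; symbols give the replicate, and bars the mean and SD of 3 libraries. Spink7 is highest in the 2 fibrotic groups, Spink6 is highest in normal skin, and Spink2, Spink3 and Spink4 overlap between most groups.

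In treated against 20-week fibrotic skin every gene that passed fell, 7 of 11 detected kallikreins and 2 of 7 detected Spink genes. The log2 change was -3.19 for Klk14, -2.79 for Klk13, -2.46 for Klk9, -2.07 for Klk8, -1.94 for Klk12, -1.64 for Klk5 and -1.52 for Klk11, with adjusted p from 0.0151 to 0.0484. Spink7 had a log2 change of -4.06 ± 1.01 (adjusted p 0.0277) and Spink5 of -1.66 ± 0.39 (adjusted p 0.0231). Klk7 had a log2 change of -1.44 (adjusted p 0.052) and Klk6 of -1.65 (adjusted p 0.237), and neither passed. Positive log2 changes, none of which passed, were 0.94 for Spink6, 0.60 for Klk1b22, 0.53 for Spink2 and 0.34 for Spink12. Of the 18 genes 12 did not overlap between the groups, nor did 32.2% of all tested genes.

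These calls moved with the libraries. Without treated replicate 1 they numbered 11, with Klk6 (log2 change -3.02, adjusted p 0.0011) and Klk7 (-2.07, adjusted p 0.000374) added to the 9, whose log2 changes then ran from -4.93 for Spink7 to -1.93 for Klk11, and 5216 of all tested genes passed in place of 2108. Without treated replicate 2 or without treated replicate 3 they numbered 2 each, and 1, 1 and 0 without fibrotic replicate 1, 2 and 3. A fit of these 6 libraries alone called 0 of the 18 and 3 of all tested genes, and a fit with no filter on low values called 1, Klk14. The replicate number as a block ended the calls of Klk13 and Klk9, and a pseudocount of 0.1 or median of ratios scaling that of Klk13. The median log2 change was -1.65 for the 11 kallikreins and -0.10 for the 7 Spink genes, beside -0.0044 over all tested genes.

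In treated against normal skin 4 of the 18 genes passed, all as higher. Klk6 was higher by 3.65 ± 0.94 (adjusted p 0.0245), Klk13 by 3.40 ± 0.84 (adjusted p 0.0208), Klk14 by 1.69 ± 0.46 (adjusted p 0.0292) and Spink12 by 1.09 ± 0.34 (adjusted p 0.0437). Without treated replicate 1 the log2 changes were 2.28 for Klk6 and 2.21 for Klk13, both still past the threshold as were Klk14 and Spink12, and Spink5 also passed, lower by a log2 change of -1.56 (adjusted p 0.00509) against -1.03 (adjusted p 0.0803) with all libraries. Spink7 had a log2 change of 2.98 (adjusted p 0.0586), which was 4.52 (adjusted p 0.000393) without treated replicate 3, where the calls of Klk14 and Spink12 were lost. The 4 calls numbered 2 without treated replicate 2 or without normal replicate 2, and 0 without normal replicate 1, without normal replicate 3 or in a fit of the 6 libraries alone. For Klk5 and Klk7 the 95% intervals of the log2 difference from normal skin ran from -1.24 to 0.42 and from -0.93 to 1.03, which span differences of either sign.

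Between 20-week and 6-week fibrotic skin none of the 18 genes passed in limma, beside 0.0363% of all tested genes, 0.00727% as higher and 0.0291% as lower, and 1 of the 18, Spink2, had an unadjusted p under 0.05. Spink7 and Spink5 did not overlap between the times, nor did 30.9% of all tested genes. Spink7 averaged 244 ± 34.8 FPKM at 20 weeks and 499.9 ± 234 FPKM at 6 weeks, and Spink5 averaged 313 ± 10.3 FPKM at 20 weeks and 194 ± 60.9 FPKM at 6 weeks (SD, n = 3 each). The log2 differences, 20 weeks minus 6 weeks, were -0.94 (adjusted p 0.641) for Spink7 and 0.74 (adjusted p 0.323) for Spink5.

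FPKM is scaled to transcript length, so levels of different genes can be added, and protease was set against inhibitor within each library. The kallikrein sum was 1913, 578 and 411 FPKM in treated skin, 2677, 2035 and 2107 FPKM in 20-week fibrotic skin, 2020 FPKM, 2895 FPKM and 2011 FPKM in 6-week fibrotic skin, and 556, 765 and 609 FPKM in normal skin. The Spink sum was 264, 128 and 68.8 FPKM in treated skin, 586, 593 and 523 FPKM in 20-week fibrotic skin, 506, 1023 and 584 FPKM in 6-week fibrotic skin, and 211, 231 and 208 FPKM in normal skin. Both sums were higher in all fibrotic than in all normal libraries, and treated replicate 1 alone of its group reached above the normal range in both.

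The ratio of the sums differed less than the sums themselves. It was 7.25, 4.52 and 5.97 in treated skin, 4.57, 3.43 and 4.02 in 20-week fibrotic skin, 3.99, 2.83 and 3.44 in 6-week fibrotic skin, and 2.64, 3.31 and 2.93 in normal skin. Treated libraries were all above normal ones, those of 20-week fibrotic skin were all above normal ones, and those of 6 weeks overlapped with normal ones. This order did not hold without Klk7 and Spink5, the most abundant gene of each family. Without them the ratio was 19.8, 7.50 and 21.3 in treated skin, 6.27, 4.54 and 6.29 in 20-week fibrotic skin, 4.71, 2.75 and 2.93 in 6-week fibrotic skin, and 29.9, 32.5 and 18.2 in normal skin. All fibrotic libraries were then below all normal ones, and treated libraries overlapped with normal ones. With all genes the means were 5.91 ± 1.36 in treated skin, 4.01 ± 0.567 in 20-week fibrotic skin, 3.42 ± 0.581 in 6-week fibrotic skin and 2.96 ± 0.334 in normal skin (SD, n = 3 each). A ratio over these genes compares RNA levels, not the activity of enzymes and inhibitors. It is a description and was given no test.

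What made up the inhibitor sum changed more than the ratio. Spink5 made up 74.8% of the Spink sum in treated skin, 55.3% in 20-week fibrotic skin, 28.7% in 6-week fibrotic skin and 93.7% in normal skin, as means of 3 libraries. Spink7 made up 18.2%, 27.8% and 1.06% in treated skin, 43.2%, 46.1% and 39.3% in 20-week fibrotic skin, 59.9%, 74.2% and 74.9% in 6-week fibrotic skin, and 0.334%, 0.608% and 0.252% in normal skin. Its mean share in treated skin was 15.7%, and 9.62% without treated replicate 2. Set against Spink5 alone, the kallikrein sum was 9.35, 7.12 and 7.15 times its level in treated skin, 8.23, 6.62 and 6.86 times in 20-week fibrotic skin, 10.4, 11.3 and 15.1 times in 6-week fibrotic skin, and 2.77, 3.50 and 3.21 times in normal skin. By that measure normal libraries were below all others, and those of 6-week fibrotic skin were above all others.

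The cascade enzymes were also set over Spink5 singly. Klk5 over Spink5 averaged 0.829 ± 0.162 in treated skin, 0.818 ± 0.112 in 20-week fibrotic skin, 1.08 ± 0.288 in 6-week fibrotic skin and 0.532 ± 0.0688 in normal skin. Klk7 over Spink5 averaged 3.12 ± 0.412 in treated skin, 2.68 ± 0.452 in 20-week fibrotic skin, 3.69 ± 1.28 in 6-week fibrotic skin and 1.46 ± 0.182 in normal skin. For all 3 enzymes the normal libraries were below all others. Klk14 over Spink5 averaged 0.0763 ± 0.0506 in treated skin, 0.201 ± 0.0579 in 20-week fibrotic skin, 0.477 ± 0.205 in 6-week fibrotic skin and 0.00548 ± 0.000463 in normal skin (SD, n = 3 each). For Klk14 the treated libraries lay between normal and fibrotic ones, while for Klk5 and Klk7 they overlapped with both fibrotic groups.

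**Figure D5:**
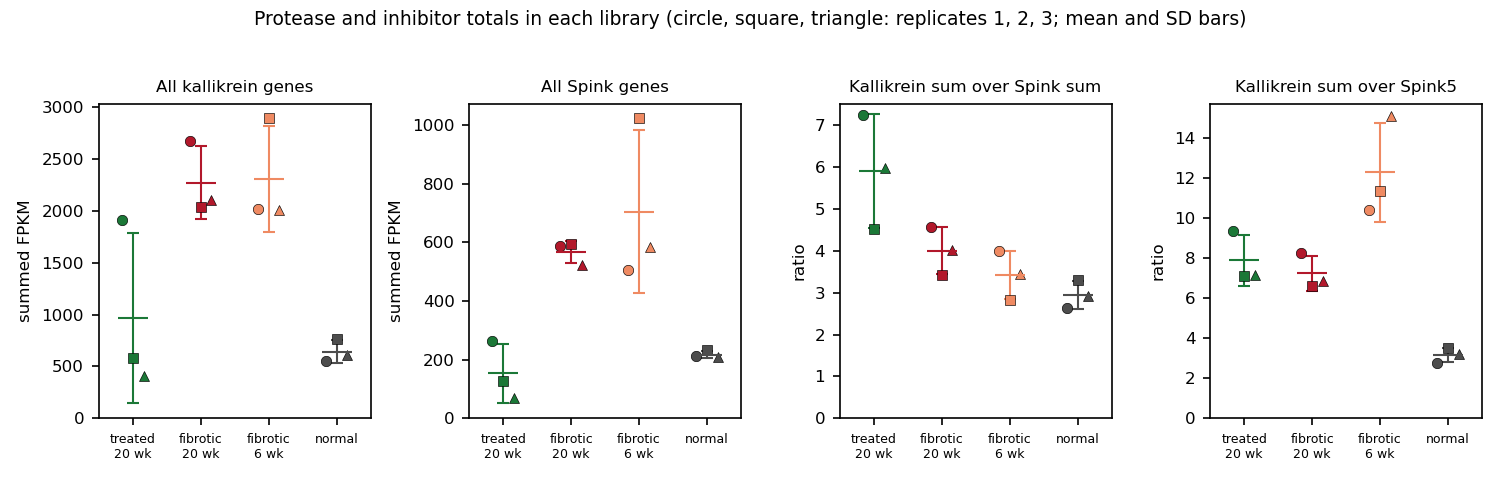
Summed FPKM of the 27 kallikreins, summed FPKM of the 12 Spink genes, their ratio, and the kallikrein sum over the FPKM of Spink5, each per library; circles, squares and triangles are replicates 1, 2 and 3, and bars the mean and SD. Both sums are higher in fibrotic than in normal skin, and the ratio to Spink5 alone is highest in 6-week fibrotic skin.

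The kallikrein sum was also divided by the summed FPKM of the keratinocyte markers. This quotient was 0.150, 0.0619 and 0.0568 in the 3 treated libraries. It averaged 0.0897 ± 0.0526 in treated skin, 0.171 ± 0.0223 in 20-week fibrotic skin, 0.179 ± 0.023 in 6-week fibrotic skin and 0.0891 ± 0.0118 in normal skin (SD, n = 3 each). Without treated replicate 1 the treated mean was 0.0594, and treated replicates 2 and 3 lay below all normal libraries, which ran from 0.0783 to 0.102. Of the 10 keratinocyte markers 4 rose and 1 fell at each time against normal skin, and 3 fell in treated against fibrotic skin. Of 8 markers of cornifying cells counted, 6 rose at each time against normal skin and 5 fell in treated against fibrotic skin. Summed, these 8 ran from 4979 to 15388 FPKM in treated and from 27239 to 27728 FPKM in 20-week fibrotic skin. Their sum was 21460 to 29072 FPKM in 6-week fibrotic and 9760 to 12871 FPKM in normal skin. The kallikrein sum was not divided by this sum, so the quotient above holds for the keratinocyte markers only. Krt1 was listed at exactly 0 in all 20-week fibrotic libraries, and Krt10 in replicates 2 and 3 of that group, where replicate 1 stood at 16040 FPKM. Neither gene was at 0 in any other group. Both were left out of these counts and sums, and the cause of the zeros was not tested. Over all tested genes 17.6% rose and 21.7% fell at 6 weeks, and 15.3% rose and 18.2% fell at 20 weeks. In treated against fibrotic skin 4.45% rose and 10.9% fell. The part of these markers in the changes of the kallikreins was not tested.

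Other epidermal proteases went the way of the kallikreins. Against normal skin 8 of 12 tested rose at 6 weeks, 10 rose at 20 weeks and none fell, and 7 fell in treated against fibrotic skin, with median log2 changes of 0.87, 1.43 and -1.03. Beside these counts and those of the lists below, 17.6% of all tested genes rose and 21.7% fell at 6 weeks. At 20 weeks 15.3% rose and 18.2% fell, and in treated against fibrotic skin 4.45% rose and 10.9% fell. Casp14, which processes filaggrin, had log2 changes of 3.98 at 6 weeks, 3.67 at 20 weeks and -2.76 in treated against fibrotic skin. Asprv1, the skin aspartic protease, had 2.12, 2.68 and -1.90 in the same order. Tmprss11d, the airway trypsin-like protease, had 3.51, 4.46 and -2.81, and it stayed below 1 FPKM in all normal libraries. St14, the gene of matriptase, which activates other serine proteases, passed in none of the 3.

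Among 7 other inhibitors 3 rose and 1 fell at 6 weeks, 4 rose at 20 weeks and 3 fell in treated against fibrotic skin, with medians of 0.74, 0.66 and -0.77. Slpi, the secreted inhibitor of leukocyte proteases, stood at 38.0, 20.2 and 15.4 FPKM in treated skin, 120.1, 147 and 105 FPKM in 20-week fibrotic skin, 220.1, 328 and 78.6 FPKM in 6-week fibrotic skin, and 2.50, 3.19 and 2.63 FPKM in normal skin. It was higher in every fibrotic library than in any normal one, by log2 changes of 5.58 at 6 weeks and 5.04 at 20 weeks, and fell by 2.38 in treated against fibrotic skin. Wfdc12, another inhibitor with a whey acidic protein domain, had log2 changes of 6.68, 7.10 and -3.32 in the same comparisons. Tmprss11d and Wfdc12 were thus tested only through the groups in which they were high, and a difference from normal skin is built into their choice. Cst6, an inhibitor of cysteine proteases, had a log2 change of -1.50 at 6 weeks.

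Proteins that kallikreins cut, or that are parts of corneodesmosomes, were followed only through the RNA of 5 tested genes. Of these 3 rose and 1 fell at each time against normal skin, and all 5 fell in treated against fibrotic skin, with medians of 1.27, 1.77 and -1.66. Cdsn, the gene of corneodesmosin, had log2 changes of 1.27 at 6 weeks, 1.77 at 20 weeks and -1.66 in treated against fibrotic skin, Dsg1b, a desmoglein, had 1.91, 2.60 and -2.21, and Dsc1, a desmocollin, had 1.45, 2.33 and -2.45. At 6 weeks the call of Dsc1 was lost when any 1 of the 6 compared libraries was left out or with no filter on low values, and that of Cdsn without fibrotic replicate 2 or normal replicate 3. Flg2, a relative of filaggrin, went the other way in fibrotic skin, with -1.58 at 6 weeks and -0.96 at 20 weeks. Dsg1a, a desmoglein gene of higher level than Dsg1b, passed at neither time against normal skin. It averaged 313 FPKM in 6-week fibrotic and 285 FPKM in normal skin, a log2 change of 0.13 (adjusted p 0.721). At 20 weeks Dsg1a stood at 430, 416 and 505 FPKM, above all normal libraries at 255, 306 and 295 FPKM. A fit of those 6 libraries alone called 4 of the 5 genes of this list as higher, in place of 3. Without treated replicate 1 the counts lower in treated than in fibrotic skin were 10 of 12 protease genes, 4 of 7 inhibitor genes and 5 of 5 genes of this list. When any other 1 of the 6 libraries was left out, they ran from 0 to 3, 0 to 2 and 0 to 4 in that order. In a fit of the 6 libraries alone they were 0 in each list.

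A receptor that such proteases switch on was lower in fibrotic skin. F2rl1, a protease-activated receptor of keratinocytes, stood at 27.4, 19.8 and 19.6 FPKM in treated skin, 15.9, 15.0 and 14.98 FPKM in 20-week fibrotic skin, 12.2, 11.1 and 16.8 FPKM in 6-week fibrotic skin, and 32.3, 33.4 and 33.9 FPKM in normal skin. It was highest in the normal libraries and lowest in the fibrotic ones, with no overlap between normal skin and any other group. It fell by 1.27 at 6 weeks (adjusted p 0.000426) and by 1.07 at 20 weeks (adjusted p 0.00137) on the log2 scale against normal skin, and its log2 change in treated against fibrotic skin was 0.50 (adjusted p 0.0562). The related F2r and F2rl2 and the cytokine gene Tslp passed in none of the comparisons. Over these 4 genes the median log2 change was 0.09 for 20-week and 0.30 for 6-week fibrotic over normal skin, and -0.07 for treated over fibrotic skin. Between 20-week and 6-week fibrotic skin none of the genes in these 4 lists passed. In treated against normal skin Furin, a protease that opens precursors, Slpi and Wfdc12 were higher, with log2 changes of 0.89, 2.66 and 3.78, and Flg2 and F2rl1 were lower, with -1.88 and -0.57. The call of F2rl1 was lost in 7 of 12 alternatives, namely with no filter, in a fit of the 6 libraries alone, and when any 1 of the 6 libraries other than treated replicate 1 was left out, where the adjusted p ran from 0.051 to 0.0946. That of Wfdc12 was lost without normal replicate 3 and in the fit of 6 libraries, and that of Furin in that fit.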

How the data were processed

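Polyadenylated RNA of 12 skin samples was sequenced in 4 groups of 3 libraries. The authors deposited 1 table of FPKM values, with a column for each library, and no source used here gives any scaling between libraries beyond FPKM. The submitters' processing notes name R 3.1.1, Cufflinks 2.2.1, SAMtools 1.0, TopHat2 2.0.13, Bowtie2 2.2.3, cutadapt 1.7.1, FastQC 0.11.2 and the mm10 build, without roles or gene annotation. Depth cannot be read from the table, so no counting interval or floor is given. Between 12658 and 13364 genes stood at 1 FPKM or more per library, and 0 pairs of libraries held the same values.

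The scale of analysis was log2(FPKM + 1). The 13761 genes at 1 FPKM or more in at least 3 libraries entered 1 limma fit (3.58.1, R 4.3.3) of all 12 libraries, with a mean per group and a variance that follows the intensity. Each of 5 comparisons was tested on 2 sides with Benjamini-Hochberg adjustment, and the threshold was an adjusted p of 0.05. The fit was tested on simulated data with the same spread in all groups. That does not show how it behaves with the larger spread of the treated libraries.

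All genes of the 2 families are named by symbol, every detected one with its values. The genes and lists were chosen with earlier results of these data known. All 39 matched RefSeq, 1 of them (Spink3) as a synonym. A2ml1 and Flg are not analysed here.

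Same-numbered libraries of fibrotic skin at 6 weeks and normal skin deviated together only weakly (r of 0.159, 0.227 and 0.108 for replicates 1, 2 and 3). No label says that same-numbered libraries are paired, so the replicate block is an alternative only. Alternatives were a pseudocount of 0.1, no filter, a filter at a mean of 5 FPKM, median of ratios scaling, the 6 compared libraries alone, the replicate block and each library left out in turn.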

Additional observations from a re-analysis of the deposited data

How the results depend on the processing

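Against normal skin, all calls at 6 weeks except that of Spink12 and all calls at 20 weeks except those of Klk5 and Klk7 were kept under every alternative in which the gene was tested. Leaving out 1 library gave 10 to 11 called members at 6 weeks, 10 to 12 at 20 weeks, 0 to 11 in treated against fibrotic skin, 0 at 20 against 6 weeks, and 0 to 5 in treated against normal skin. Over all tested genes it gave 3502 to 4574, 3028 to 3545, 3 to 5216, 4 to 109 and 904 to 3098 calls in the same order, against 5409, 4605, 2108, 5 and 2855 with all libraries. Treated against fibrotic skin gave 1 member and 1205 genes without a filter and 0 members and 3 genes in the fit of its 6 libraries. Treated against normal skin gave 1 member without a filter, and 0 members and 138 genes in the fit of its 6 libraries. Its calls over all genes were 1042 higher and 1813 lower, and 1263 higher and 1352 lower under median of ratios scaling. The 20-week against 6-week comparison gave 9 genes without a filter, 33 with a mean of at least 5 FPKM and 478 in the fit of its 6 libraries.

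The replicate block left 10 members at 6 weeks, 12 at 20 weeks, 7 in treated against fibrotic skin (1365 of all genes) and 3 in treated against normal skin. By the labels, same-numbered samples share only a number. Over all pairs of groups 5 of 18 same-numbered pairs correlated above 0.1, with r from -0.35 to 0.291. 

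Without Klk7 and Spink5, the most abundant of each family, the kallikrein to Spink ratio averaged 16.2 in treated skin, 5.70 in 20-week fibrotic skin, 3.46 in 6-week fibrotic skin and 26.9 in normal skin, so that normal skin had the highest mean where it had the lowest, 2.96, with all genes. Means of the Spink shares and of the quotient with keratinocyte markers without 1 library were added after seeing the data, as were the alternatives read for single genes of the other lists.

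Every value that turned its sign was one that had not passed. Klk11 in treated against normal skin was 0.045 under median of ratios scaling, against -0.024. With 1 library left out, log2 changes ran at 6 weeks from -0.50 to 0.50 for Spink4 and from -0.33 to 0.13 for Spink5; at 20 weeks against normal skin from -0.35 to 0.17 for Spink3 and from -0.54 to 0.14 for Klk10; in treated against fibrotic skin from -0.46 to 0.37 for Spink4; at 20 against 6 weeks from -0.52 to 0.19 for Spink6, from -0.30 to 0.24 for Klk1b22, from -0.43 to 0.12 for Klk6, from -0.12 to 0.40 for Spink3, from -0.18 to 0.11 for Klk11 and from -0.24 to 0.057 for Klk8; and in treated against normal skin from -0.58 to 0.47 for Klk7, from -0.44 to 0.40 for Klk11 and from -0.86 to 0.059 for Klk5. The cause of these shifts was not tested. FPKM values without counts do not show how much depth limits the low genes.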
